A study of Mus musculus with 21 samples.

Results

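The response of mouse lung to a fungal extract over that to a control protein was compared between 12 h and 3 h. MACA is a crude antigen extract of the mould Metarhizium anisopliae, which the labels set among agents of high or low allergenicity, and BSA is bovine serum albumin. Female BALB/c mice, 8 weeks old, had drawn 1 dose of 20 µg of either agent, in 50 µl of Hank's balanced salt solution (HBSS), into the trachea, or HBSS alone. The question was which transcripts differed between MACA and BSA to another extent at 12 h than at 3 h. It was asked with the interaction, which is the MACA minus BSA difference at 12 h less that at 3 h, on normalized log2 values of all 22626 probe sets that were not controls. The groups were taken from the array titles: MACA 12 h (n = 3), BSA 12 h (n = 4), MACA 3 h (n = 4) and BSA 3 h (n = 3), which are 14 of the 21 arrays of the study, beside HBSS 12 h (n = 4) and HBSS 3 h (n = 3). All mice were of 1 strain, sex and age, each array came from RNA of a whole homogenized left lung, and the labels call the arrays biological replicates.

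A fungal extract in the airway is met first by alveolar macrophages, epithelium and dendritic cells, whose receptors for fungal wall components and proteases signal through NF-kB and AP-1. Genes induced directly by these factors rise and fade within hours, because several of them encode inhibitors of the same pathway, while recruited leukocytes, secreted mediators and repair change the tissue later. A positive interaction means that the difference of MACA from BSA stood higher at 12 h than at 3 h, and a negative one that it stood lower. The same number is the change of MACA lungs between the times less that of BSA lungs, so that a gene can reach it through either treatment.

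The arrays held the RNA of lung: the surfactant genes Sftpc and Sftpb, the club cell gene Scgb1a1 and the endothelial genes Cldn5 and Cdh5 lay above the noise level (log2 5.83) on 14 of 14 arrays. The eosinophil granule genes Epx and Prg2 lay above it on 0 of 14. Arrays had median deposited intensities of 96.9 to 203, and precision is limited by how many arrays there are. Arrays correlated within a group at a median of 0.985 and between groups at a median of 0.975. The arrays also fell into 2 technical sets by the ratio of 2 probe sets for the 3' and 5' ends of a spiked control, which was 1.62 to 1.9 on 10 arrays (high set) and 0.939 to 1.11 on 4 arrays (low set). The low set held replicates 3 and 4 of BSA 12 h and replicates 3 and 4 of MACA 3 h, and no array of MACA 12 h or BSA 3 h. A difference between the sets therefore enters the interaction in full, and none can be computed within the low set. Their origin is not stated by the labels.

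The interaction passed the threshold, a Benjamini-Hochberg adjusted p of 0.05 in limma, for 106 of 22626 probe sets (0.468%). Of these, 45 were higher (0.199%) and 61 lower (0.27%), and a change of 2-fold or more was found for 27 higher and 30 lower ones. An unadjusted p under 0.05 was reached by 3872 probe sets, and the median interaction over all probe sets was -0.014. The calls were close to the threshold and depended on the arrays used. In the high set alone, 16 probe sets passed, of which 1 was among the 106, a probe set of Endod1. All 106 had the same sign and an unadjusted p under 0.05 there, but the high-set arrays are among those that chose the 106. This agreement is therefore no further evidence. The size of the 106 in the high set was at the median 0.9 times that over both sets. With the 14 arrays fitted alone, 4 passed, and with no array scaling none did (0 in limma, against 1116 at an unadjusted p under 0.05). Leaving out a single array gave 265 without MACA 3 h replicate 1, 250 without BSA 12 h replicate 1 and 162 without BSA 12 h replicate 2. It gave 122 without MACA 12 h replicate 1, 65 without MACA 3 h replicate 2, 58 without MACA 12 h replicate 3, and 9 to 34 without any one of the other 8 arrays. The values below are thus sizes with their errors in these arrays, and each named gene that passed is given with its size in the high set.

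The 106 probe sets were divided into 4 patterns by where the larger difference of MACA from BSA lay. An early rise (18 probe sets) had the larger difference at 3 h, with MACA above BSA. A late fall (43) had it at 12 h, with MACA below BSA. A late rise (23) had it at 12 h with MACA above BSA, and an early fall (22) at 3 h with MACA below BSA. The following counts come from the arrays that chose the 106 and set their patterns, so they describe the probe sets and are no further evidence. By themselves, the differences between MACA and BSA passed for 1608 of all probe sets at 12 h (7.11%) and for 1055 at 3 h (4.66%). Of the 18 early rises, 3 also passed at 12 h and all 18 at 3 h, whereas 43 of the 43 late falls passed at 12 h and 2 at 3 h. All 23 late rises passed at 12 h and 1 at 3 h, and of the 22 early falls 1 passed at 12 h and 21 at 3 h. The fitted differences had opposite signs at the 2 times for 84 of the 106, but only 5 passed the threshold at both times in opposite directions. MACA and BSA arrays did not overlap for 83 of the 106 at 12 h (16.1% of all probe sets) and for 56 at 3 h (17.5%).

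**Figure D1:**
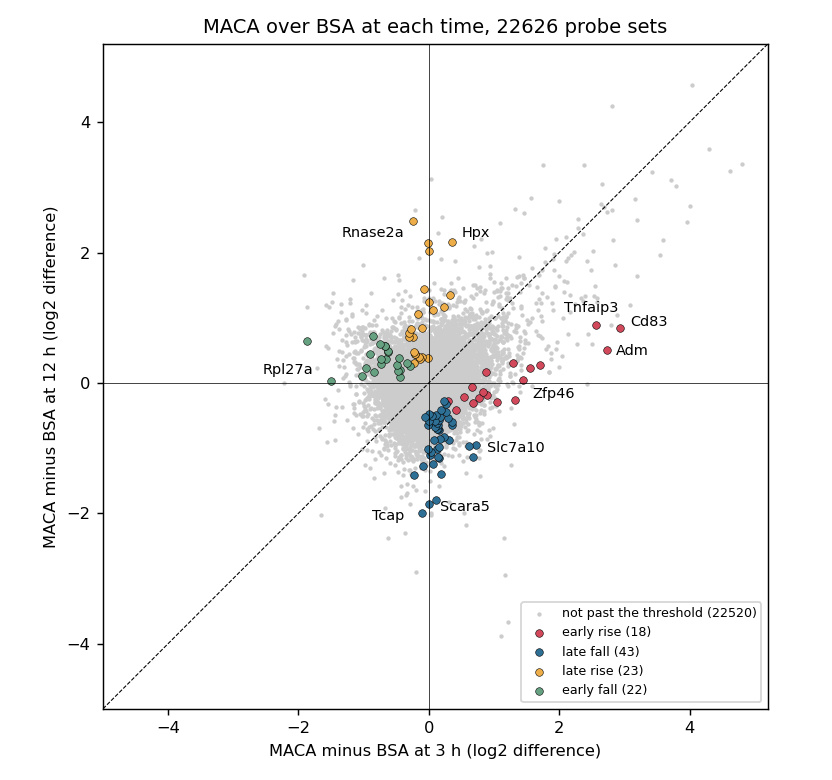
Log2 difference of MACA from BSA at 12 h (vertical) against that at 3 h (horizontal) for 22626 probe sets, with the 106 that passed the interaction threshold coloured by pattern and the dashed line marking equal differences. The 18 early rises lie to the right near the horizontal axis, with Adm, Cd83 and Tnfaip3 farthest out, and the 43 late falls lie below the centre.

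The change with time was mostly on the MACA side. Between 12 h and 3 h, 90 of the 106 passed within MACA lungs (9.12% of all probe sets did) and 20 within BSA lungs (3.41%). Both of these comparisons share their arrays with the interaction, so the counts describe it and are no further evidence. Among early rises, the median difference of 12 h from 3 h was -0.82 in MACA lungs and 0.12 in BSA lungs. Among late falls the medians were -0.75 in MACA lungs and 0.22 in BSA lungs. Late rises stood at 0.96 in MACA lungs and 0.02 in BSA lungs. Early falls differed from the other patterns in that both sides moved at the median, by 0.60 in MACA lungs and -0.46 in BSA lungs.

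Among the early rises, Adm encodes adrenomedullin, a peptide that widens vessels and tightens endothelium, and it had the lowest interaction of the named genes that passed. At 12 h its log2 level was 9.42, 9.91 and 9.32 in MACA lungs, against 9.19, 8.98, 9.21 and 8.78 in BSA lungs. At 3 h it was 9.52, 10.22, 9.98 and 10.22 in MACA lungs, against 7.14, 6.86 and 7.76 in BSA lungs. MACA lungs stood above BSA lungs on every array at both times, with a wide gap at 3 h and a narrow one at 12 h. The difference was 0.51 ± 0.23 (SE, adjusted p = 0.2) at 12 h and 2.73 ± 0.23 (SE, adjusted p = 1.13e-05) at 3 h, which gives an interaction of -2.22 ± 0.33 (SE, limma adjusted p = 0.0159), and -2.15 in the high set. The gap narrowed through BSA lungs, in which Adm stood 1.79 higher at 12 h than at 3 h, while MACA lungs changed by -0.43. HBSS lungs took a course like that of BSA lungs, with 8.82 ± 0.35 at 12 h and 7.82 ± 0.11 at 3 h (SD, n = 4 and 3).

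Cd83, a surface glycoprotein of activated dendritic and B cells, took the other course, with the change in MACA lungs. Its level was 8.37, 8.65 and 8.62 in MACA lungs, against 7.84, 7.57, 7.77 and 7.64 in BSA lungs at 12 h. The 3 h levels were 10.44, 11.02, 10.93 and 11.28 in MACA lungs, against 8.02, 7.74 and 8.21 in BSA lungs. Groups did not overlap at either time, and MACA lungs at 3 h stood far above all other groups, HBSS lungs included (7.43 ± 0.11 at 12 h and 8.09 ± 0.61 at 3 h). The difference of 12 h from 3 h was -2.37 in MACA lungs and -0.28 in BSA lungs. The interaction was -2.08 ± 0.32 (SE, limma adjusted p = 0.0173), and -1.89 in the high set.

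Tnfaip3 encodes A20, an enzyme that edits ubiquitin chains and shuts off NF-kB signalling. It measured 8.02, 7.74 and 7.30 in MACA lungs, against 7.09, 6.50, 6.99 and 6.62 in BSA lungs at 12 h. In 3 h lungs it measured 8.99, 9.82, 9.81 and 10.36 in MACA lungs, against 7.09, 7.27 and 7.16 in BSA lungs. MACA lungs were above BSA lungs on every array at both times, by 0.89 ± 0.24 (SE, adjusted p = 0.0371) at 12 h and 2.57 ± 0.24 (SE, adjusted p = 3.33e-05) at 3 h. Its interaction was -1.69 ± 0.34 (SE, limma adjusted p = 0.0438), and -1.34 in the high set. The call for Tnfaip3 was lost in 10 of 14 fits that left out 1 array, that for Cd83 in 1, and that for Adm in 0.

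Zfp46, which encodes a zinc finger protein, had the smallest adjusted p of the named genes. Its level was 10.07, 10.12 and 10.34 in MACA lungs, against 9.88, 10.05, 10.26 and 10.31 in BSA lungs at 12 h. Earlier, at 3 h, it was 11.16, 11.53, 11.38 and 11.74 in MACA lungs, against 9.87, 10.07 and 10.06 in BSA lungs. The groups overlapped at 12 h, and at 3 h MACA lungs stood more than 1 log2 unit above BSA lungs on every array. HBSS lungs measured 9.99 ± 0.07 at 12 h and 10.04 ± 0.07 at 3 h, beside the BSA lungs at both times. The interaction was -1.40 ± 0.17 (SE, limma adjusted p = 0.00413), and -1.13 in the high set, and the call held in 14 of 14 fits that left out 1 array. A dimmer probe set of the gene, under the noise level in all 4 groups, gave -1.27 (adjusted p = 0.104).

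The other named early rises were 2 receptors, 2 interferon-induced genes, an enzyme and a protein of membrane traffic. Cd40, the receptor through which T cells license antigen-presenting cells, had an interaction of -1.34 ± 0.27 (SE, limma adjusted p = 0.0431), with a 12 h difference of -0.29 and a 3 h difference of 1.05. Its second probe set passed too, at -1.0. Ccrl2, an atypical receptor that binds chemerin, was at -1.58 ± 0.28 (SE, limma adjusted p = 0.0311), with -0.26 at 12 h and 1.32 at 3 h. For both receptors the groups overlapped at 12 h, and at 3 h all MACA arrays were higher. Ifi47, a GTPase of the immunity-related family, was at -1.32 ± 0.26 (SE, limma adjusted p = 0.0413), and Irf1, a transcription factor of the interferon response, at -0.98 ± 0.19 (SE, limma adjusted p = 0.0396). Ifi47 in BSA lungs stood 0.83 higher at 12 h than at 3 h, and Irf1 in BSA lungs only 0.07 higher. Hdc, the enzyme that makes histamine, was at -0.99 ± 0.20 (SE, limma adjusted p = 0.0453): BSA lungs stood 1.11 higher at 12 h than at 3 h, and MACA lungs 0.12 higher. High-set sizes were -1.07 for Cd40, -1.34 for Ccrl2, -1.07 for Ifi47, -0.73 for Irf1 and -0.81 for Hdc. The 5 calls held in 3 to 7 of the 14 fits that left out 1 array. Tbc1d22a, a protein with a domain that switches off Rab GTPases, passed in opposite directions at the 2 times, with -0.41 ± 0.12 (SE, adjusted p = 0.046) at 12 h and 0.42 ± 0.12 (SE, adjusted p = 0.0498) at 3 h. Its interaction was -0.83 ± 0.17 (SE, limma adjusted p = 0.0431), and -0.48 in the high set, over 1.5 times smaller. Among the remaining early rises, Cx3cl1, the membrane-bound chemokine fractalkine, had an interaction of -0.97. Bcl10, an adaptor that links antigen and fungal lectin receptors to NF-kB, passed through 1 probe set at -0.69. Its brightest probe set gave -0.47 (limma adjusted p = 0.173) and the other one -0.81 (limma adjusted p = 0.0994). Both genes were chosen after their values were seen.

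Promoter sequence is shown for 3 early rises that held matches to the letters searched below, chosen after their values and matches were seen. Each run is the RefSeq sequence of GRCm38.p6 from 250 bases before to 50 after a transcript start, read on the strand of the gene. The windows are chr9:111057469-111057768 (minus strand) for Ccrl2, chr11:53769764-53770063 (plus strand) for Irf1 and chr10:19015361-19015660 (minus strand) for Tnfaip3. Capitals mark matches, on either strand, to the NF-kB element, searched as GGGA and CC with any 4 bases between them, or to the AP-1 element, searched as TGANTCA.
Ccrl2: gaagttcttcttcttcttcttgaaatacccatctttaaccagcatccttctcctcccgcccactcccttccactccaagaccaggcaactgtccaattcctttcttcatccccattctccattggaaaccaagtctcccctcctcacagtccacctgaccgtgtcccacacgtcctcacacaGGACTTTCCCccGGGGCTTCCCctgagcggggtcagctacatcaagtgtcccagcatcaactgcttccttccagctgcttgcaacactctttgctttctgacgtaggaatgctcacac
Irf1: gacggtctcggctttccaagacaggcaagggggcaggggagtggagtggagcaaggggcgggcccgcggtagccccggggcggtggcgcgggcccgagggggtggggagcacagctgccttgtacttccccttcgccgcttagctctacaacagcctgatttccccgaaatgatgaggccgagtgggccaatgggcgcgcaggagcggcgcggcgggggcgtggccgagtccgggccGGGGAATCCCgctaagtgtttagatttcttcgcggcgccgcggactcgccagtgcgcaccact
Tnfaip3: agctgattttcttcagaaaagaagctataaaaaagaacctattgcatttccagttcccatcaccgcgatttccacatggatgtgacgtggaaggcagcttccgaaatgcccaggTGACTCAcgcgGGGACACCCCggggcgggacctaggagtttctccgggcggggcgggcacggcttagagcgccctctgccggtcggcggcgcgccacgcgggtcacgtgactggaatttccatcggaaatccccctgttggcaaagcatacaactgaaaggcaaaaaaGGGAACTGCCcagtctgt
Ccrl2 held 2 matches to the NF-kB letters almost side by side, Irf1 held 1, and Tnfaip3 held 2 beside 1 match to the AP-1 letters. Ccrl2 and Irf1 have further start sites in the table, whose windows held 0 matches. A further window of Tnfaip3, chr10:19011914-19012213 (minus strand), held 1 match to the NF-kB letters. Of 16 early-rise genes, 13 had a promoter in the table, with 19 windows, and 6 windows held the NF-kB letters. The share was of the same order in the other patterns: 14 of 41 windows for late falls, 5 of 17 for late rises and 5 of 13 for early falls. Over all 32544 promoters it was 20.8%. The AP-1 letters were found for 2 of the 13 early-rise genes, Tnfaip3 and Plet1, and in 7.79% of all promoters. The interferon-stimulated response element, searched on both strands as GAAA, any 2 bases and GAAA, was found for 0 of the 13, and in 3.45% of all promoters. The rule for promoters took the 2 highest and the 2 lowest of the named genes that passed and had a promoter in the table. These were Rnase2a, Hpx, Adm and Ltc4s, and their windows held 0 matches to the NF-kB, AP-1 or interferon letters. All of these counts are matches of letters, with no test and no measure of binding.

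Among the late falls, Tcap encodes telethonin, a cap protein of the sarcomere in heart and skeletal muscle. It measured 6.50, 5.99 and 6.33 in MACA lungs, against 8.05, 8.01, 8.43 and 8.61 in BSA lungs at 12 h. At 3 h it measured 8.61, 9.24, 9.42 and 9.54 in MACA lungs, against 9.13, 9.43 and 9.34 in BSA lungs. The groups overlapped at 3 h, and at 12 h MACA lungs were below BSA lungs on every array, and below HBSS lungs (8.12 ± 0.27). The 12 h difference was -2.0 ± 0.23 (SE, adjusted p = 0.000209), and the interaction was -1.91 ± 0.32 (SE, limma adjusted p = 0.0297), and -1.39 in the high set. The difference of 12 h from 3 h was -2.93 in MACA lungs and -1.02 in BSA lungs.

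Scara5, a scavenger receptor for ferritin of stromal cells, measured 6.10, 5.21 and 6.25 in MACA lungs, against 7.28, 7.92, 7.86 and 7.78 in BSA lungs at 12 h. The 3 h levels were 7.21, 7.39, 7.50 and 7.46 in MACA lungs, against 7.03, 7.38 and 7.75 in BSA lungs. BSA lungs stood 0.32 higher at 12 h than at 3 h, MACA lungs at 12 h were below every BSA array, and 1 of their 3 arrays was under the noise level. The interaction was -1.86 ± 0.35 (SE, limma adjusted p = 0.0396), and -1.66 in the high set.

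Ltc4s, the synthase of leukotriene C4 in mast cells, eosinophils and macrophages, was under the noise level on all 3 MACA arrays at 12 h (5.50, 5.55 and 5.62), against 6.93, 7.21, 7.87 and 7.42 in BSA lungs. In 3 h lungs it measured 6.34, 6.58, 7.38 and 6.61 in MACA lungs, against 6.70, 6.15 and 7.0 in BSA lungs. The groups overlapped at 3 h, and at 12 h Ltc4s was at least 2.88-fold lower in MACA lungs. The interaction was -1.92 ± 0.40 (SE, limma adjusted p = 0.0478), and -1.36 in the high set.

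Slc7a10, a transporter of small neutral amino acids, passed in opposite directions at the 2 times. Its level was 8.49, 7.98 and 8.42 in MACA lungs, against 8.99, 9.19, 9.54 and 9.25 in BSA lungs at 12 h. Earlier, at 3 h, it was 9.18, 9.14, 9.10 and 9.05 in MACA lungs, against 8.54, 8.42 and 8.22 in BSA lungs. MACA lungs were lower on every array at 12 h and higher on every array at 3 h. The difference was -0.95 ± 0.17 (SE, adjusted p = 0.00472) at 12 h and 0.72 ± 0.17 (SE, adjusted p = 0.0276) at 3 h, with an interaction of -1.67 ± 0.25 (SE, limma adjusted p = 0.0159), and -1.56 in the high set. HBSS lungs stood at 9.40 ± 0.35 at 12 h and 9.15 ± 0.22 at 3 h, so that at 12 h MACA lungs and at 3 h BSA lungs were the low group. The call held in 14 of 14 fits that left out 1 array.

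Man2b1, a lysosomal mannosidase, also passed in opposite directions at the 2 times, at a smaller size. Its level was 10.43, 10.27 and 10.25 in MACA lungs, against 10.57, 10.71, 10.68 and 10.59 in BSA lungs at 12 h. At 3 h it was 10.61, 10.61, 10.73 and 10.71 in MACA lungs, against 10.37, 10.35 and 10.51 in BSA lungs. The order of the groups turned between the times with no overlap at either. HBSS lungs stood at 10.43 ± 0.12 at 12 h and 10.62 ± 0.07 at 3 h (SD), nearer to MACA than to BSA lungs at both times. With HBSS in place of BSA, the interaction was -0.16 for Man2b1 (limma adjusted p = 0.421) and -1.08 for Slc7a10 (limma adjusted p = 0.0284). That comparison shares the MACA arrays, and every HBSS 12 h array was in the low set. For Man2b1, MACA and BSA gave the following. The interaction was -0.58 ± 0.10 (SE, limma adjusted p = 0.0307), and -0.53 in the high set. Clec3b, the plasminogen-binding protein tetranectin, also stood lower in MACA lungs at 12 h (-1.14, adjusted p = 0.0102), with 0.67 at 3 h (adjusted p = 0.125) and an interaction of -1.81 ± 0.34 (SE, limma adjusted p = 0.0378). Ctsf, the lysosomal protease cathepsin F, had -0.97 at 12 h (adjusted p = 0.00937), 0.61 at 3 h (adjusted p = 0.0965) and an interaction of -1.57 ± 0.29 (SE, limma adjusted p = 0.0344). In the high set they were at -1.49 and -1.34.

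Of 23 measured matrix and remodelling genes, 1 passed in the interaction, Mmp2, and 6 were lower and 2 higher at an unadjusted p under 0.05, with a median of -0.09. MACA lungs were higher for 5 of them at 12 h, with 2 lower, and higher for 5 at 3 h. Dcn, a marker of fibroblasts outside that list, encodes decorin, a proteoglycan that coats collagen fibrils, and measured 9.79, 9.58 and 10.18 in MACA lungs, against 10.77, 10.93, 11.33 and 11.39 in BSA lungs at 12 h. The 3 h levels were 10.66, 10.83, 11.47 and 10.84 in MACA lungs, against 10.97, 10.72 and 10.97 in BSA lungs. MACA lungs at 12 h were lower on every array, and the groups overlapped at 3 h. The interaction was -1.31 ± 0.27 (SE, limma adjusted p = 0.0465), and -0.86 in the high set, which is over 1.5 times smaller. Srpx, a secreted protein with sushi repeats, was at -1.28 ± 0.23 (SE, limma adjusted p = 0.0344), and -0.82 in the high set, again over 1.5 times smaller. Mmp2, the gelatinase that fibroblasts secrete, was at -1.01 ± 0.20 (SE, limma adjusted p = 0.0435), and -0.89 in the high set, with a second probe set at -0.93 (adjusted p = 0.0672). Late falls outside the list that encode matrix proteins, chosen after their values were seen, were Mfap5 of elastic microfibrils (-1.19), Fbln1 or fibulin (-1.19), Pcolce2, an enhancer of procollagen cleavage (-1.10), Col14a1, a collagen of fibril surfaces (-1.03), and Lama2, a laminin chain of basement membranes (-0.83). Each of these 5 stood lower in MACA lungs at 12 h, with differences of -1.28 to -0.70, and their differences at 3 h were between -0.09 and 0.31. For Fbln1 and Col14a1 these values are from a probe set that was not the brightest of its gene. The brightest gave -0.93 for Fbln1 (limma adjusted p = 0.0563) and -0.76 for Col14a1 (limma adjusted p = 0.179), and neither passed.

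**Figure D2:**
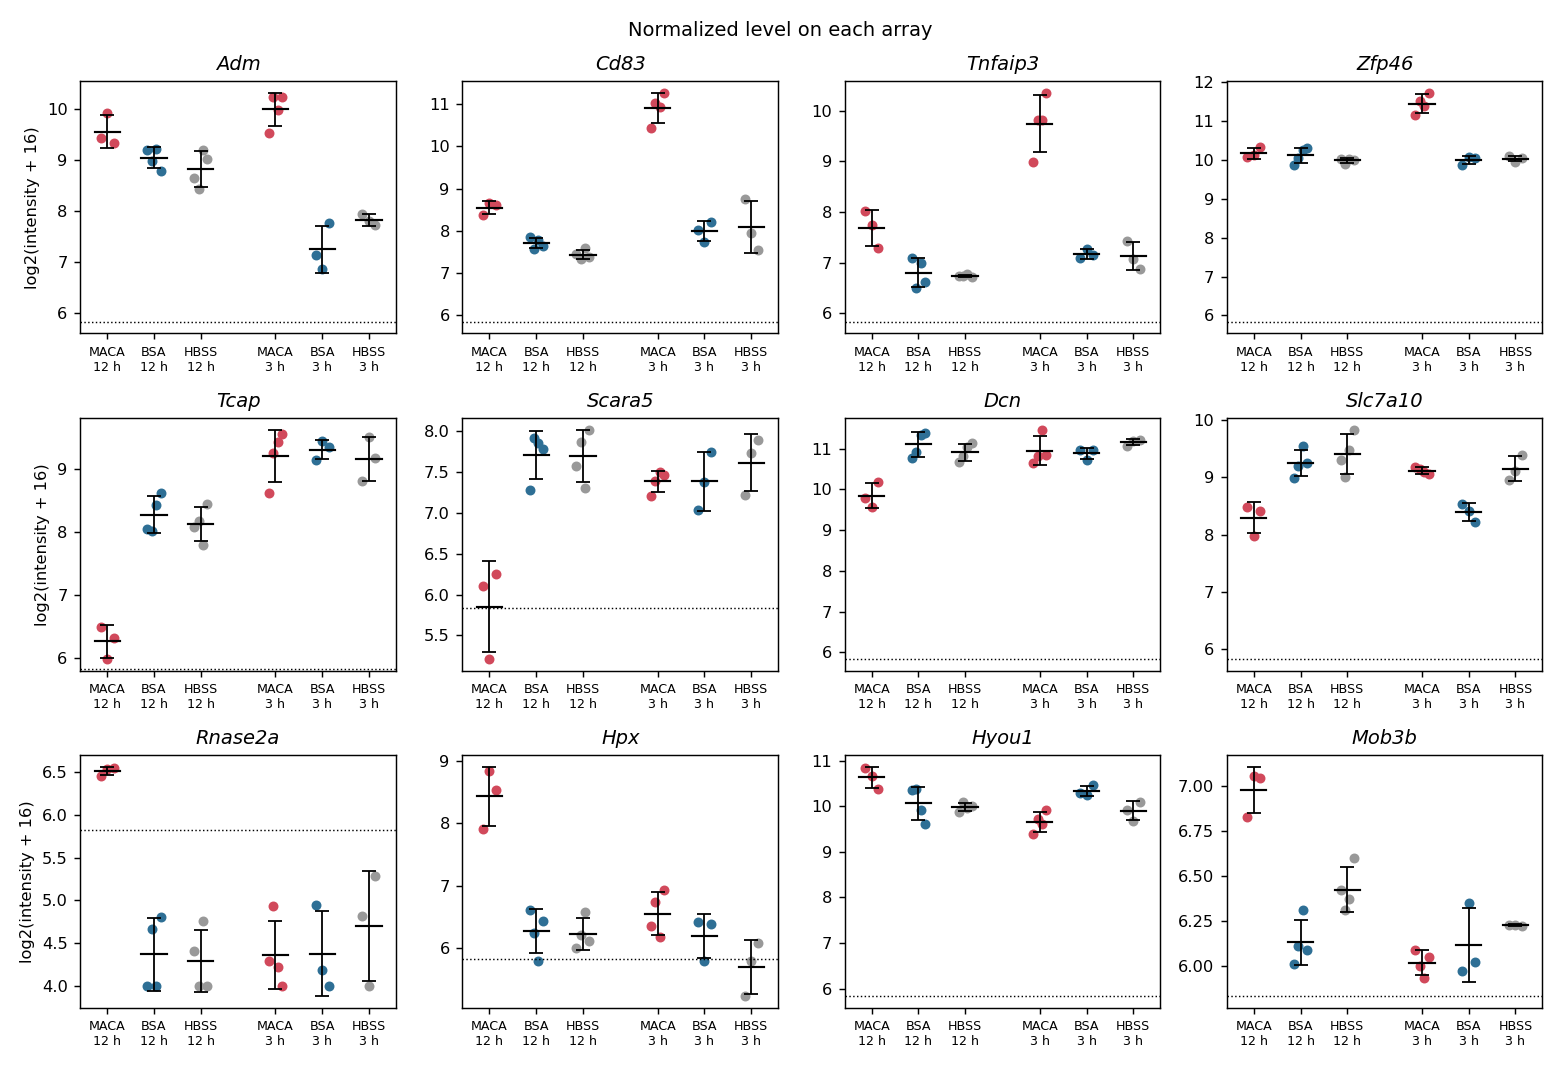
Normalized level, log2(intensity + 16), of 12 named genes on each array of the 6 groups, with bars for the mean and SD (n = 3 or 4) and a dotted line at the noise level of 5.83. Cd83, Tnfaip3 and Zfp46 are high in MACA 3 h arrays, Tcap, Scara5 and Dcn are low in MACA 12 h arrays, and Rnase2a is above the noise level in MACA 12 h arrays alone of the 6 groups.

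Late rises had fewer named genes, and several were dim. Hpx encodes hemopexin, the plasma protein that binds free haem. It measured 7.91, 8.84 and 8.53 in MACA lungs, against 6.61, 6.24, 5.80 and 6.43 in BSA lungs at 12 h. In 3 h lungs it measured 6.36, 6.74, 6.18 and 6.93 in MACA lungs, against 6.41, 5.79 and 6.38 in BSA lungs. MACA lungs at 12 h stood above every other array, and the groups overlapped at 3 h. The 12 h difference was 2.16 ± 0.27 (SE, adjusted p = 0.000546), the interaction was 1.80 ± 0.38 (SE, limma adjusted p = 0.0478), and the high set gave 1.65. HBSS lungs measured 6.22 ± 0.25 at 12 h and 5.70 ± 0.43 at 3 h.

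Rnase2a, an eosinophil-associated ribonuclease that mouse macrophages also express, was above the noise level in 1 group only. MACA lungs at 12 h had 6.46, 6.54 and 6.55, and all 11 other arrays of MACA and BSA lungs were under the noise level. At 12 h it was at least 1.61-fold higher in MACA lungs than in BSA lungs. The fitted interaction of 2.16 ± 0.45 (SE, limma adjusted p = 0.0451) depends on values under the noise level, and with these set to that level it was 0.68. In the high set it was 1.95, on the same dim values.

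Mob3b, a kinase adaptor, was low but above the noise level on all 14 arrays. It measured 6.83, 7.06 and 7.05 in MACA lungs, against 6.01, 6.11, 6.31 and 6.09 in BSA lungs at 12 h. Earlier, at 3 h, it measured 6.09, 6.0, 5.93 and 6.05 in MACA lungs, against 5.97, 6.35 and 6.02 in BSA lungs. MACA lungs at 12 h were higher than every other array, and the 3 h groups overlapped. Its interaction was 0.95 ± 0.13 (SE, limma adjusted p = 0.0159), and 0.99 in the high set, and the call held in 14 of 14 fits that left out 1 array. Havcr2, the checkpoint receptor Tim-3 of T cells and myeloid cells, was at least 1.71-fold higher in MACA lungs at 12 h, where all 4 BSA arrays were under the noise level, and its interaction was 1.05 ± 0.21 (SE, limma adjusted p = 0.0431). Vwa1, a matrix protein with a von Willebrand domain, was at 1.0 ± 0.21 (SE, limma adjusted p = 0.0488), with all 4 MACA arrays at 3 h under the noise level. Atg3, an enzyme of autophagosome formation, was at 0.49 ± 0.10 (SE, limma adjusted p = 0.0488), and Dbi, the acyl-CoA-binding protein, at 0.51 ± 0.10 (SE, limma adjusted p = 0.0431). In the high set, Havcr2 was at 1.09, Vwa1 at 1.09, Atg3 at 0.34 and Dbi at 0.49.

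Several late rises rested on a probe set that was not the brightest of its gene. For Tgfbi, a matrix protein of macrophages and fibroblasts, 2 probe sets passed, at 1.10 and 1.08, and the brightest gave 1.22 (adjusted p = 0.0527). Mcm2, a subunit of the replicative helicase, passed at 1.23, and its brightest probe set gave 0.83 (adjusted p = 0.0892). For Dtl, an adaptor of the replication-coupled ubiquitin ligase, the probe set that passed (1.52) and the brightest one (-0.91, adjusted p = 0.204) had opposite signs, both under the noise level in all 4 groups. Tgfbi and Mcm2 thus had 1 sign across their probe sets, and Dtl had not. These 3 genes were chosen after their values were seen.

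Of 24 measured genes of the Atf4 pathway and unfolded protein response, 1 passed in the interaction, the early fall Hyou1, and 2 were higher and 1 lower at an unadjusted p under 0.05. The median was -0.06, and 14 of the 24 were below 0. Hyou1, a chaperone of the endoplasmic reticulum, measured 10.85, 10.67 and 10.39 in MACA lungs, against 10.36, 10.37, 9.92 and 9.62 in BSA lungs at 12 h. At 3 h it measured 9.39, 9.73, 9.62 and 9.91 in MACA lungs, against 10.30, 10.24 and 10.47 in BSA lungs. MACA lungs were higher on every array at 12 h and lower on every array at 3 h. Its difference was 0.57 ± 0.17 (SE, adjusted p = 0.0532) at 12 h and -0.67 ± 0.17 (SE, adjusted p = 0.035) at 3 h, with an interaction of 1.24 ± 0.24 (SE, limma adjusted p = 0.0396), and 1.05 in the high set. The other 2 probe sets of Hyou1 gave 0.28 and 0.47 and did not pass. Derl1, a channel of protein disposal from the endoplasmic reticulum, was at 0.54 ± 0.10 (SE, limma adjusted p = 0.0396), with other probe sets at -0.13 to 0.37. Ergic1, of the compartment between endoplasmic reticulum and Golgi, was at 0.85 ± 0.17 (SE, limma adjusted p = 0.0451), with others at -0.53 to 0.77. The high set gave 0.52 for Derl1 and 0.88 for Ergic1. With HBSS in place of BSA, the interaction was 0.88 for Hyou1 (limma adjusted p = 0.0572) and 0.42 for Ergic1 (limma adjusted p = 0.201). For Derl1 it was -0.04 (limma adjusted p = 0.912), with HBSS lungs at 10.80 at 12 h and 10.49 at 3 h. MACA lungs had 10.66 and 10.39 for Derl1, and BSA lungs 10.57 and 10.84, in the same order.

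Rpl27a, a ribosomal protein of the large subunit, was another early fall. It measured 8.24, 8.21 and 7.71 in MACA lungs, against 7.76, 7.87, 8.33 and 8.13 in BSA lungs at 12 h. The 3 h levels were 7.11, 7.86, 7.05 and 6.79 in MACA lungs, against 8.74, 8.55 and 8.82 in BSA lungs. The groups overlapped at 12 h, and at 3 h MACA lungs were lower on every array, with HBSS lungs between them (8.06 ± 0.15). The interaction was 1.53 ± 0.31 (SE, limma adjusted p = 0.0435), and 1.45 in the high set, and the gene's other probe set, under the noise level in all 4 groups, gave 0.10.

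Khdrbs1, an RNA-binding protein of splicing, was at 0.78 ± 0.16 (SE, limma adjusted p = 0.0449), with 0.51 in the high set, over 1.5 times smaller. Of its 7 probe sets, 3 passed, at 0.78, 1.03 and 1.10, and 2 were below 0. With HBSS in place of BSA, those 3 gave 0.18, 1.03 and 0.75 (limma adjusted p = 0.599, 0.0161 and 0.0516). Sgf29, a reader of histone methylation, was at 0.67 ± 0.13 (SE, limma adjusted p = 0.0431), and Mrps36, a mitochondrial protein, at 0.55 ± 0.10 (SE, limma adjusted p = 0.0396). The high set gave 0.50 and 0.51. Mrps36 passed in opposite directions at the 2 times, with 0.26 at 12 h (adjusted p = 0.0461) and -0.29 at 3 h (adjusted p = 0.0366). The highest value of this pattern, chosen after it was seen, was 2.51 for a probe set of Rab2a, a GTPase of Golgi traffic, of which the brightest probe set gave 0.08. Xbp1, the transcription factor of the unfolded protein response, passed through 1 probe set at 1.19 while its brightest gave 0.08. Probe sets that can pick up several transcripts (names ending in x_at or s_at) were 12 of the 22 early falls (54.5%), against 13.2% of all probe sets.

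Groups of genes were described with 40 lists that hold 663 measured genes, each taken by its brightest probe set. By that measure 63 of 12393 genes passed (0.508%), 17 higher (0.137%) and 46 lower (0.371%), with a median interaction of -0.037. Among list genes 12 passed, in 11 lists. An unadjusted p under 0.05 was reached by 8.36% of all genes upward and 9.31% downward, and list counts at this level are read against those shares.

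Of 15 measured NF-kB feedback genes, which encode inhibitors and subunits of the pathway, 1 passed in the interaction, Tnfaip3, and 8 were lower at an unadjusted p under 0.05. The median was -0.48. MACA lungs were higher than BSA lungs for 11 of them at 12 h, with 1 lower, and for 12 at 3 h; of all genes, 3.57% were higher at 12 h and 3.24% at 3 h. Zc3h12a, a ribonuclease that degrades cytokine messages, was at -1.06 ± 0.30 (SE, limma adjusted p = 0.107), with 1.34 at 12 h and 2.40 at 3 h, and Nfkbiz, a nuclear cofactor of NF-kB, at -0.99. The median difference of the list was 0.74 at 12 h and 1.22 at 3 h, and its median interaction in the high set was -0.42.

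Of 25 measured immediate early genes, which are transcription factors and regulators switched on without new protein, 0 passed in the interaction (limma; 10 lower and 1 higher at an unadjusted p under 0.05). The median interaction was -0.47, and -0.32 in the high set. MACA lungs were higher than BSA lungs for 3 of them at 12 h, with 1 lower, and for 13 at 3 h. Atf3, a stress-induced repressor, was at -1.64 ± 0.45 (SE, limma adjusted p = 0.104), with 0.41 at 12 h (adjusted p = 0.484) and 2.05 at 3 h (adjusted p = 0.00198). Ier2 had -1.26 in the interaction, Egr1 -1.44 and Fos -1.13, none past the threshold, with differences of 0.02, -0.05 and 0.10 at 12 h. By contrast, Klf4, a factor of epithelial differentiation, was at 0.89 (adjusted p = 0.244).

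The lists of interferon-induced genes did not behave alike, though the difference between them was not tested. Of 9 guanylate-binding proteins and immunity-related GTPases, which attack vacuoles that hold microbes, 1 passed, Ifi47, and 3 were lower at an unadjusted p under 0.05, with a median of -0.51 (-0.48 in the high set). MACA lungs were higher for 3 of the 9 at 12 h and for 8 at 3 h. Of 24 antiviral interferon-stimulated genes, 1 passed, Irf1, and 4 were higher and 1 lower at an unadjusted p under 0.05, with a median of 0.10 (0.06 in the high set). MACA lungs were higher for 16 of the 24 at 12 h and for 12 at 3 h. Zbp1, a sensor of left-handed nucleic acid, was at 1.41 ± 0.32 (SE, limma adjusted p = 0.0623), with 2.10 at 12 h (adjusted p = 0.000184) and 0.69 at 3 h (adjusted p = 0.0958).

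The lists of CXC chemokines, CC chemokines and proinflammatory cytokines gave no call in the interaction, and the call of Cx3cl1 lay outside them. None of 14 CXC and none of 17 CC chemokines passed (0 in limma each), with 4 and 3 genes at an unadjusted p under 0.05 in either direction, and none of 20 proinflammatory cytokines (0, with 7). Cxcl2, which draws neutrophils, was at -1.48 ± 1.06 (SE, limma adjusted p = 0.506), with 2.47 at 12 h (adjusted p = 0.0569) and 3.96 at 3 h (adjusted p = 0.00744). At 12 h it measured 9.32, 9.19 and 8.99 in MACA lungs, against 9.21, 5.94, 5.36 and 6.26 in BSA lungs. BSA 12 h replicate 1 thus lay within the range of the MACA lungs. Csf3, the growth factor of granulocytes, was at -2.45 ± 0.53 (SE, limma adjusted p = 0.0522). It was at least 2.09-fold higher in MACA lungs at 3 h, while at 12 h all arrays of MACA and BSA lungs were under the noise level. Ccl24, the eosinophil chemokine eotaxin-2, ran the other way at 3.09 ± 0.69 (SE, limma adjusted p = 0.058): it was at least 3.33-fold higher in MACA lungs at 12 h, and under the noise level on all 7 arrays at 3 h. Arg1, an arginine-degrading enzyme of alternatively activated macrophages, stood at 2.33 (adjusted p = 0.0615), with 2.54 at 12 h and 0.21 at 3 h. The 28 measured type 2 and alternative activation genes had 0 calls (limma; 3 higher and 0 lower at an unadjusted p under 0.05) and a median of 0.08 (-0.05 in the high set).

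Markers of muscle and fat had the lowest median of the 40 lists. Of 20 measured genes, 1 passed, Tcap, and 11 were lower at an unadjusted p under 0.05. The median interaction was -1.03, and -0.54 in the high set, which is over 1.5 times smaller. MACA lungs were lower for 11 of the 20 at 12 h (4.87% of all genes were) and for 0 at 3 h (limma; 1.99% of all genes were). Summed over the list, the log2 intensity was 12.72 to 13.14 in MACA lungs and 13.85 to 14.43 in BSA lungs at 12 h, against 13.19 to 14.14 and 13.66 to 14.20 at 3 h. Car3, carbonic anhydrase of fat and muscle, had -4.99 ± 1.15 (SE, limma adjusted p = 0.0638) and -3.42 in the high set. Fat genes varied between arrays, with Adipoq from 4.47 to 9.62 over the 14 arrays, and the skeletal muscle gene Acta1 was above the noise level on 10 of 14. Whole lung can carry heart, muscle and fat at its root, and the part that their amount in each sample has in these values was not tested. In bulk tissue, fewer cells of a type and less RNA per cell cannot be told apart.

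Fibroblast and smooth muscle markers had 1 call among 22, Dcn, with 6 lower at an unadjusted p under 0.05 and a median of -0.32 (-0.20 in the high set, over 1.5 times smaller). MACA lungs were lower for 5 of the 22 at 12 h and for 1 at 3 h. Their summed log2 intensity was 15.38 to 15.46 in MACA lungs and 15.49 to 15.63 in BSA lungs at 12 h, and 15.39 to 15.50 and 15.38 to 15.45 at 3 h. Thy1, a surface protein of fibroblasts and T cells, was at -0.98 ± 0.27 (SE, limma adjusted p = 0.108). The 20 club cell and detoxification genes had 0 calls (limma; 6 lower and 0 higher at an unadjusted p under 0.05) and a median of -0.28, and MACA lungs were lower for 6 of them at 12 h and for 0 at 3 h. Gsta2, a glutathione transferase induced by oxidants, was at -1.75 ± 0.68 (SE, limma adjusted p = 0.211) over both sets and at -2.74 ± 0.25 (SE, adjusted p = 0.0052) in the high set. In BSA lungs at 12 h, Gsta2 measured 9.50 and 9.89 in the high set and 7.50 and 7.86 in the low set. MACA lungs at 3 h had 8.46 and 8.30 in the high set and 8.40 and 8.45 in the low set. HBSS 12 h arrays, all of the low set, had 8.48 to 10.42.

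Markers of immune cells gave calls for dendritic cells and for the granulocyte and mast cell list. Of 17 dendritic cell markers, 2 passed, Cd83 and Cd40, both lower, and 4 were lower and 3 higher at an unadjusted p under 0.05 (-0.39 at the median, -0.20 in the high set and -0.02 with values under the noise level set to it). Fscn1, the actin bundler of mature dendritic cells, ran against those 2 genes by its brightest probe set, at 2.12 ± 0.51 (SE, limma adjusted p = 0.071). That probe set had 1.65 at 12 h (adjusted p = 0.0119) and -0.47 at 3 h (adjusted p = 0.504), and 1.02 in the high set. The other probe sets of Fscn1 gave -0.17, -0.18 and, under the noise level, -0.01. The 21 T cell and NK cell markers had a median of -0.53 (-0.84 in the high set and -0.34 with dimmer values set to the noise level), 0 calls (limma), and 4 lower and 0 higher genes at an unadjusted p under 0.05. The 17 neutrophil markers had a median of -0.45 (-0.22 with dimmer values set to the noise level) and 0 calls, with 3 lower and 0 higher at that level. Their summed log2 intensity was 13.76 to 14.24 in MACA lungs and 12.58 to 13.88 in BSA lungs at 12 h, against 13.83 to 14.40 and 12.03 to 13.04 at 3 h. BSA 12 h replicate 1 stood apart in S100a9, a calcium-binding protein of neutrophils, at 11.77 against 10.19 to 10.34 on the other 3 arrays. The part of neutrophil numbers in the early rises was not tested. Hdc was the 1 call among 17 eosinophil, basophil and mast cell markers, of which only 4 had a group mean above the noise level. That list had a median of 0.03, with 0 higher and 1 lower at an unadjusted p under 0.05. Hdc is also made by neutrophils.

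Lists of cell cycle genes and of heat shock and chaperone genes gave no call by their brightest probe sets. Of 29 cell cycle genes, 0 passed (limma) and 8 were higher and 1 lower at an unadjusted p under 0.05, with a median of 0.16, 0.36 in the high set and 0 with dimmer values set to the noise level. The interaction was below 0 for 13 of the 29. Mcm6, another helicase subunit, was at 1.05 ± 0.27 (SE, limma adjusted p = 0.0916), with 0.94 at 12 h (adjusted p = 0.00935) and -0.11 at 3 h. Aurkb, a mitotic kinase, was the gene below 0 at that level, at -0.97. Of 19 heat shock and chaperone genes, 0 passed (limma) and 5 were higher and 1 lower at an unadjusted p under 0.05, with a median of 0.17 (0.11 in the high set). Hsph1, a large heat shock protein, was at 1.18 ± 0.27 (SE, limma adjusted p = 0.0657), with 0.76 at 12 h (adjusted p = 0.0266) and -0.42 at 3 h (adjusted p = 0.23). Ednrb, the endothelin receptor of alveolar capillaries, was the endothelial marker with the largest value, at -1.20 ± 0.30 (SE, limma adjusted p = 0.0826), and -1.17 in the high set. Alveolar epithelial markers had a median of -0.01 and 0 calls among 18 genes (limma; 1 at an unadjusted p under 0.05). The lists not named here had medians between -0.35 and 0.34.

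**Figure D3:**
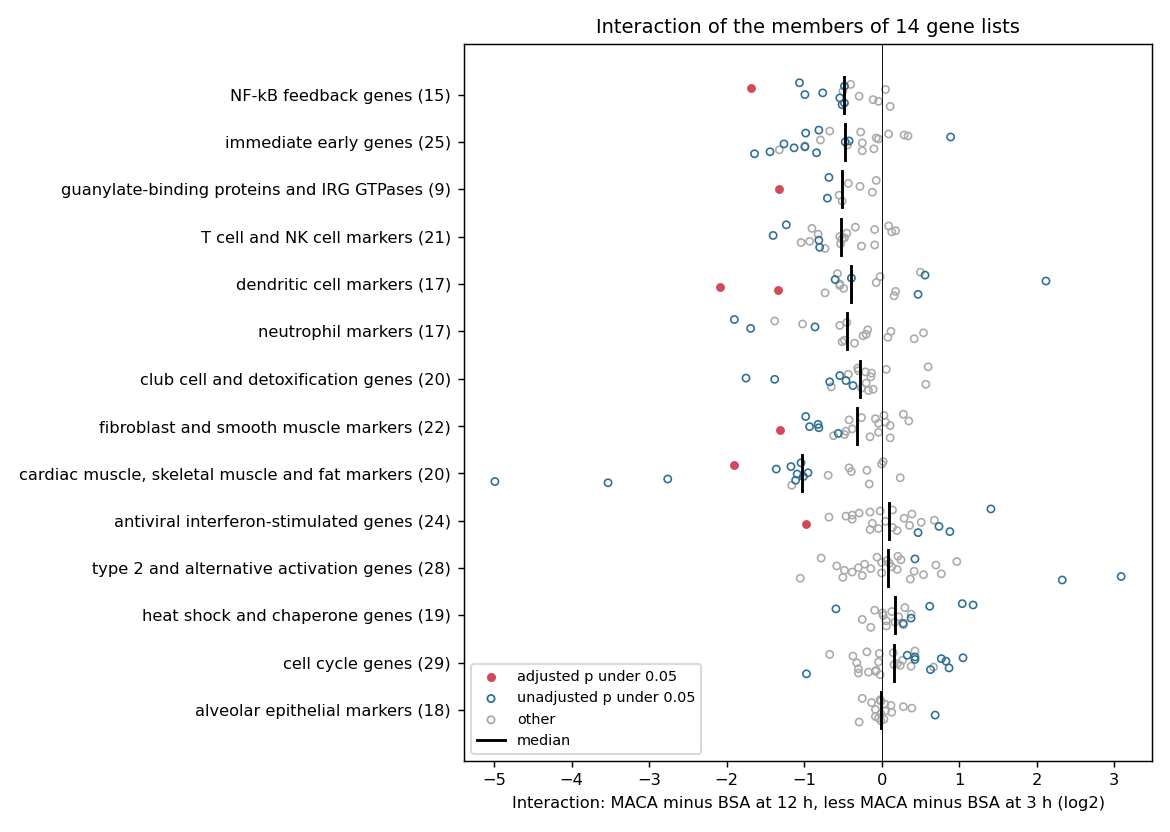
Interaction (log2) of each measured member of 14 gene lists by its brightest probe set, with the number of members in brackets, filled points for an adjusted p under 0.05, open blue points for an unadjusted p under 0.05 and a bar at the median. The muscle and fat list has its median at -1.03, and alveolar epithelial markers have theirs at -0.01.

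Within the high set, where 10 arrays carry the comparison, the sign of every named gene that passed was kept, and 0 of the 34 passed there (limma). All 34 had an unadjusted p under 0.05 there. Since the high-set arrays are among those that chose the 34 genes, the kept signs are no further evidence. Of the 106 probe sets, 84 were smaller in size there and 7 moved by over 1.5 times. The set itself, fitted as a term over the 21 arrays, passed for 3113 probe sets (13.8%). Single arrays decided most calls as well. In the 14 fits that left out 1 array, the calls of Adm, Slc7a10, Zfp46 and Mob3b held in all, that of Cd83 in 13, and those of the other 29 genes in 2 to 9. All 34 held without MACA 3 h replicate 1 or without BSA 12 h replicate 1. The fewest held without BSA 3 h replicate 2 (4 genes), without MACA 12 h replicate 2 (5), without BSA 12 h replicate 3 (5) and without MACA 3 h replicate 3 (5). The 16 probe sets that passed in the high set included Prss22, an epithelial serine protease (-3.76), Gsta2, and Srxn1, an enzyme that repairs peroxiredoxins (-2.19), as lower, and Cldn10, a claudin of club cells (2.50), and Cyp2f2, a cytochrome P450 of club cells (1.32), as higher. Over both sets, these genes had -2.05, -1.75, -0.84, 1.46 and 0.57, in the same order, and none passed. They were chosen after their values were seen, and the probe set of Srxn1 was not the brightest of its gene.

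**Figure D4:**
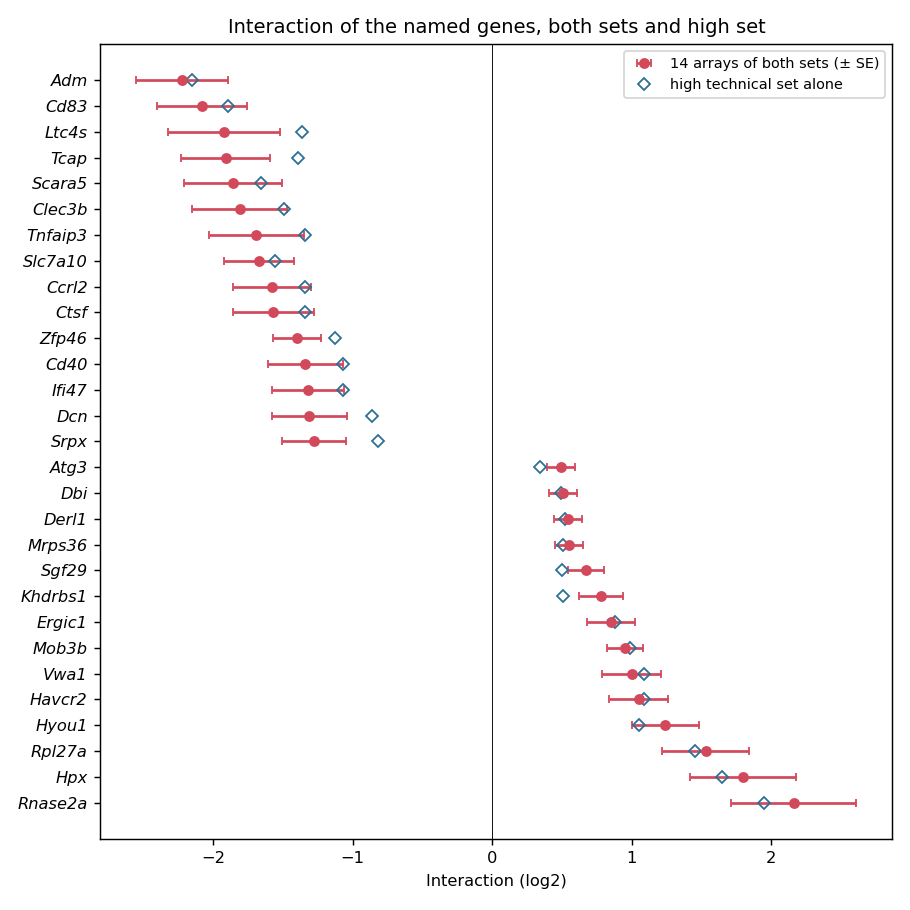
Interaction (log2) of the 29 genes with the highest and lowest values that passed, over both technical sets (filled points with SE) and within the high set alone (open diamonds). All 29 keep their side of 0, with Adm at -2.22 and -2.15 and Dcn at -1.31 and -0.86.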

How the data were processed

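Total RNA of whole left lungs was labelled with biotin as cRNA and hybridised, per the labels' protocols. The authors deposited 1 column of linear intensities per array for 22690 probe sets with Affymetrix-type names, of which 9.84% to 10.7% on the 14 MACA and BSA arrays were below 0. The labels name neither the software nor the summary method nor a scaling step for these values. After 64 control probe sets had been dropped from the deposited intensities, the rest were quantile normalized over all 21 arrays, negative values became 0, and log2(value + 16) was computed, a log2 scale on which dim genes change too little. As noise level served the 95th percentile of the size of negative values (intensity 40.9, log2 5.83). Folds written as "at least" divide the brighter group's mean by that of the dim group, in which each array counts at no less than the noise level.

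limma 3.58.1 in R 4.3.3 fitted 6 group means with 15 residual degrees of freedom, and the 2-sided p of each contrast was adjusted (Benjamini-Hochberg) over all 22626 probe sets. The platform annotation gave 1 symbol for 20380 of these, several for 691 and none for 1555. Of the 20380, 20351 were matched by gene number to the RefSeq gene table of GRCm38.p6 and given its symbol, and 29 without a match kept theirs. A gene is given by its brightest probe set of 12393 genes unless another is named. The comparison, the gene lists and the members were chosen with earlier results of these data known. The interaction test was tried on simulated data with independent normal errors. These had no technical sets and no floor for dim values, so the trial does not bear on either. The rule for named genes took up to 15 genes in each direction past the threshold with a group above the noise level, genes past it at both times in opposite directions, and for each list up to 3 that passed and the largest that did not. Alternatives were other scalings, pseudocounts and filters, the 14 arrays alone, array weights, a replicate block, the technical set and leaving out each array. The noise floor, the set term over 14 arrays and all alternatives for the contrasts between times were chosen after seeing the data. Promoter sequences are from RefSeq, and 65 of 92 genes with a called probe set were in the table. Python 3.11.15 and matplotlib 3.10.9 drew the figures.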

Additional observations from a re-analysis of the deposited data

Results flagged for a closer look

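The difference between MACA and BSA lungs itself changed with time, by the test of the interaction in limma, for 106 probe sets. Among them, 5 passed in opposite directions at the 2 times: Slc7a10 with an interaction of -1.67, Tbc1d22a with -0.83, Man2b1 with -0.58, Mrps36 with 0.55, and a probe set without 1 gene symbol with 0.53.

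A single array lay far from the rest of its group in 5 of 144 groups of 4 arrays tested among the named genes. Chance flags about 1 in 20 such groups. Havcr2 was at 5.44 on MACA 3 h replicate 1, against 5.86 to 5.93 on the other 3 arrays. On BSA 12 h replicate 1, S100a9 was at 11.77 (10.19 to 10.34 on the others), Mt2, a metallothionein, at 11.29 (8.87 to 9.06) and Tapbp, the chaperone of peptide loading, at 11.77 (11.25 to 11.31). Ptges2, a prostaglandin synthase, was at 7.03 on BSA 12 h replicate 2 (7.43 to 7.46).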

How the results depend on the processing

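The 34 named genes that passed kept their sign under all alternatives run on these same arrays, while the number of calls did not hold. The count of 106 for the interaction of MACA over BSA with time became 0 with no scaling (limma; 1116 at an unadjusted p under 0.05), 170 with dim probe sets left out, 4 with the 14 arrays alone (Cd83, Slc7a10, Dtl and a probe set without a symbol), 26 with array weights, 16 in the high technical set, 1 with the set as a term (Scube2, chosen after its value was seen) and 0 with the set as a term in the 14 arrays (limma; 1691 at an unadjusted p under 0.05). It was 74 with 75th percentile scaling, 141 with a pseudocount of 64, 88 with a pseudocount of 4, 89 with 1 probe set per gene and 122 with values under the noise level set to it. For MACA over BSA at 12 h, 1608 became 83 with no scaling, 827 with the 14 arrays alone, 915 with the set as a term, 462 in the high set and 438 with the set as a term in the 14 arrays. For MACA over BSA at 3 h, 1055 became 56 with no scaling, 446 with the 14 arrays alone, 160 in the high set and 393 with the set as a term in the 14 arrays. For MACA at 12 h over MACA at 3 h, it was 125 with no scaling, 1331 with 1 probe set per gene, 1137 in the high set and 1318 with the set as a term in the 14 arrays, in place of 2063. For BSA at 12 h over BSA at 3 h, 771 became 31 with no scaling, 267 with the 14 arrays alone, 368 with the set as a term, 168 in the high set, 464 with array weights and 137 with the set as a term in the 14 arrays. Fewer arrays enter the fits of the 14 arrays and of the high set. The cause of the other changes was not tested.

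Leaving out each array in turn gave 9 to 265 calls for the interaction, 478 to 2488 for MACA over BSA at 12 h, 319 to 1413 for MACA over BSA at 3 h, 933 to 2283 for MACA at 12 h over MACA at 3 h and 184 to 1240 for BSA at 12 h over BSA at 3 h. The labels give replicate numbers no shared source. Deviations from the group means correlated at a median of 0.061 (-0.151 to 0.391) over 19 same-numbered pairs, 7 of them over 0.1, and at -0.021 over 54 differently numbered pairs, 11 of them over 0.1, so the numbers were not taken to pair the samples. With the replicate block, 21 probe sets passed in the interaction, 19 of them among the 106, and 7 of the 34 named genes. The low technical set is replicates 3 and 4 of 2 groups, so the block is not independent of it. Signal near or under the noise level limits Rnase2a, Vwa1, Havcr2, Ltc4s and Scara5, and also Pla2g5 and Nmb, which are given below.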

Other observations

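Probe sets of the interaction that were not used as a gene's brightest or carry no single symbol also held large values. A probe set that matches several genes had an interaction of 2.03 (adjusted p = 0.00413), and another without 1 symbol had 2.72 (adjusted p = 0.0344). Both were under the noise level on all BSA arrays and all MACA 3 h arrays, so these sizes depend on dim values. At 12 h they were at least 1.3-fold and 3.04-fold higher in MACA lungs, in that order. The first was under the noise level on 1 MACA 12 h array as well. Late falls outside the rule for named genes included Nmb, the peptide neuromedin B, at -1.19, Cyp27a1, a sterol hydroxylase, at -1.12, Fcgrt, the neonatal Fc receptor that recycles IgG and albumin, at -0.76, Gas6, the ligand of the TAM receptors that prompt uptake of dying cells, at -0.74, and Inmt, an amine methyltransferase abundant in lung, at -0.46 (adjusted p = 0.0224). Each of these 5 was lower in MACA than in BSA lungs at 12 h, with differences of -1.41 to -0.52, and 3 h differences of -0.23 to 0.12. The -1.41 is that of Nmb, which at 12 h was under the noise level on all 3 MACA arrays and on 1 BSA array. Nmb was at least 1.04-fold lower in MACA lungs at 12 h, so its sizes depend on dim values. Pla2g5, a secreted phospholipase A2, was a late rise at 0.93, with 1.17 at 12 h and 0.24 at 3 h. It was under the noise level on every array, so these sizes rest on dim values alone.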
